A study of Mus musculus with 6 samples.

Results

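The 42 genes described here run DNA replication and mitosis: the helicase that opens replication origins, the enzymes that supply nucleotides, the cyclins and kinases that drive the cell cycle, and the parts of the spindle and the centromere. They were chosen by name as textbook cell cycle genes, with earlier results of these data known, out of 46603 genes in the count tables. Of the 42, 40 were found by symbol in the FPKM tables, and Cdt1 and Gins2 were found through an Ensembl symbol table, so their FPKM values are not used here. All 42 passed the filter on low counts; 41 of them reached its level in all 3 wild-type libraries and the remaining 1, Ndc80, in 2 of them. The genes were set in 3 blocks. The replication block has 11 genes (Mcm2 to Mcm7, Pcna, Rrm1, Rrm2, Gins2 and Cdc6), the mitosis block has 20, and the other 11 include the cyclins of the G1/S transition, Ccna2 and the proliferation markers Mki67 and Top2a.

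RNA-seq was made from primary enamel organ cells of the lower incisor of C57BL/6 mice. Both groups share the strain, the tissue and the protocol. The knockout group (DKO) is labelled as a knockout of Stim1 and Stim2, whose proteins sense calcium in the endoplasmic reticulum and gate store-operated calcium entry, and has 3 libraries, numbered 1, 3 and 4. The wild-type group (WT) has 3 libraries, numbered 1, 2 and 3. The labels do not give the age of the mice, the promoter or Cre behind the deletion, or whether tissue was pooled. Nor do they say that the libraries of a group came from separate animals, so the p-values speak for the spread between these 6 libraries. Levels of Xist, given at the end, differed within each group, so at least 2 animals stand behind each; how much of the spread is technical is not known.

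Before a cell divides, the MCM helicase is loaded on replication origins in G1, fires in S phase, and PCNA holds the polymerases on the new strand. Cyclin A and cyclin B with CDK1 then carry the cell into mitosis, where Polo and Aurora kinases build the spindle, the checkpoint waits until each kinetochore is attached, and the anaphase promoting complex ends mitosis. Replication genes are mainly switched on by E2F factors late in G1. Most mitosis genes rise later, in G2. They are held down in G1 by the DREAM complex, which can bind a short promoter element called the cell cycle genes homology region. The mouse incisor grows throughout life from the cervical loops, where epithelial cells divide, while secretory and maturation ameloblasts have left the cell cycle.

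Library totals ran from 18609759 to 22829411 counts. Levels are given as CPM (counts per 1e+06 counts of the library, after TMM scaling), log2 fold changes are given ± SE, and the per-library values always follow the order DKO 1, 3 and 4, then WT 1, 2 and 3. Stim1 stood at 107, 143 and 125 CPM in DKO and 413, 492 and 362 CPM in WT, a log2 fold change (DKO over WT) of -1.75 ± 0.15 (adjusted p = 0.00553, edgeR). Stim2 stood at 105, 136 and 125 CPM in DKO and 229, 310 and 245 CPM in WT, a log2 fold change of -1.10 ± 0.14 (adjusted p = 0.0180, edgeR). Every DKO library was below every WT library for both genes, and the means fell by 70.4% for Stim1 and 53.2% for Stim2, so part of the RNA was still counted. The tissue label was met by the enamel matrix genes: Ambn lay between 37564 and 90060 CPM and Amelx between 28849 and 81133 CPM over the 6 libraries. In bulk tissue, fewer cells of a type and less RNA per cell cannot be told apart, and the same holds for more dividing cells and more cell cycle RNA in each.

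Most mitosis genes had higher counts in the knockout enamel organ, while the most abundant replication genes stood at nearly the same level in both groups. The 20 mitosis genes had a median log2 fold change of 0.81, from -0.0037 for Cenpa to 1.09 for Cdk1, and 19 of them lay above 0. The 11 replication genes had a median of 0.23, from -0.032 for Rrm1 to 0.89 for Mcm5, and 10 lay above 0; without WT 3 this median was 0.13. The remaining 11 genes had a median of 0.56. Over all 14721 genes tested the median was -0.0068, and 48.7% lay above 0. The difference between the blocks was not tested, since the genes of a block share libraries and regulation and are not replicates.

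No single member passed the test over all genes. edgeR's quasi-likelihood test called 0 of 42 at an adjusted p below 0.05, beside 1.04% of all genes tested in either direction and 0.734% in the direction of DKO. The members' adjusted p ran from 0.0641 for Mcm5 to 0.995 for Cenpa. At an unadjusted p below 0.05, 19 of the 42 were higher in DKO and 0 lower: 13 of 20 in mitosis, 2 of 11 in replication and 4 of 11 among the rest. The share over all genes tested was 8.67%. The Wald test of DESeq2, run as an alternative, called 8 members, all higher in DKO (Mcm5, Rrm2, Top2a, Cdk1, Plk1, Bub1b, Cdc20 and Ube2c), beside 3.31% of all genes. On the FPKM values, limma called 0 of the 27 members that passed a filter at 1 FPKM, beside 0.576% of all genes in either direction. Without that filter it called 0 of 40 members, beside 0.0423% of all genes.

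In 21 of the 42 genes every DKO library lay above every WT library, and in 0 every DKO library lay below. Over all genes tested these shares were 11.4% and 11.8%. By block, 12 of 20 mitosis genes, 3 of 11 replication genes (Mcm5, Rrm2 and Cdc6) and 6 of the other 11 had groups without overlap. The plot of log2 fold changes by gene shows this order.

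**Figure D1:**
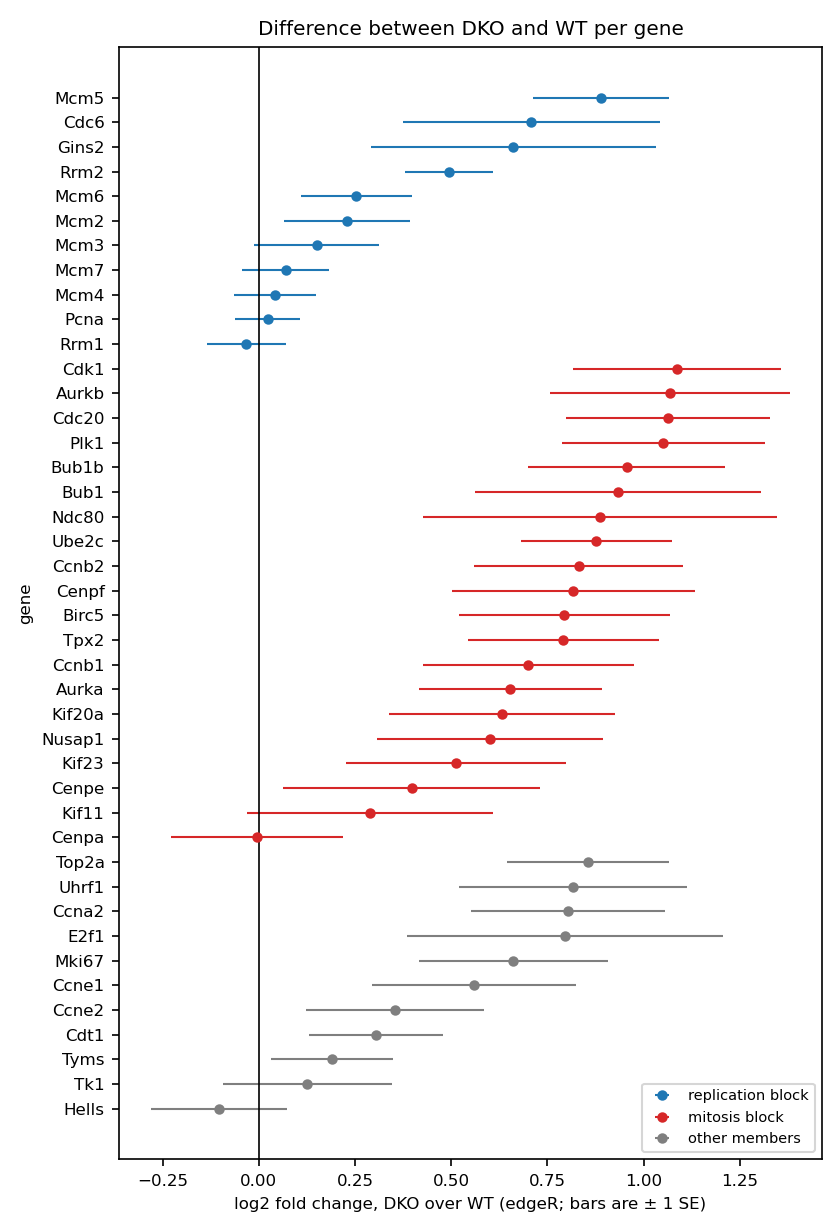
Log2 fold change (DKO over WT, x axis) of each of the 42 genes (y axis), ordered within its block by size, with bars of 1 standard error either way; blue, red and grey mark the replication, mitosis and other members. The mitosis genes run from -0.0037 for Cenpa to 1.09 for Cdk1 around their median of 0.81, while Pcna, Rrm1, Mcm4 and Mcm7 lie near 0.

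Promoters of 6 members are printed to set genes of the 2 blocks side by side: Cdk1, Cdc20 and Plk1 are mitosis genes with larger differences, Mcm5 is the replication gene with the smallest p, and Mcm6 and Pcna are replication genes with small fold changes. The sequences are from RefSeq on GRCm38.p6, 250 bases before to 50 after the annotated start, 5′ to 3′ on the gene's strand. Capitals mark the cell cycle genes homology region (TTTGAA or TTCGAA), the CCAAT box (CCAAT) and the E2F site (TTTCCCGC, TTTCGCGC, TTTGCCGC or TTTGGCGC), each searched on both strands, so that ATTGG is a CCAAT box read from the other strand.
Cdk1, chr10:69352863-69353162, minus strand: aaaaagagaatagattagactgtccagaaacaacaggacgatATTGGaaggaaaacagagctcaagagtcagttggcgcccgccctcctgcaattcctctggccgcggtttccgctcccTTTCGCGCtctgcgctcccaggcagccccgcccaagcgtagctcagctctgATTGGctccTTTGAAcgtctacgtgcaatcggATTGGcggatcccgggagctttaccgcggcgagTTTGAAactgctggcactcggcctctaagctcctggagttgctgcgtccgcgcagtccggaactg
Cdc20, chr4:118437294-118437593, minus strand: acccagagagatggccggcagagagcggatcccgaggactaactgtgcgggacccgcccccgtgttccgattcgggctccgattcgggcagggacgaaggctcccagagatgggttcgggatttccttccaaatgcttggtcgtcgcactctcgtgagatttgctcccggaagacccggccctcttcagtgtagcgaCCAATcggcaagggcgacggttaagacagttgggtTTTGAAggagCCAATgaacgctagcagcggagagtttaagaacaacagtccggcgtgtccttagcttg
Plk1, chr7:122159185-122159484, plus strand: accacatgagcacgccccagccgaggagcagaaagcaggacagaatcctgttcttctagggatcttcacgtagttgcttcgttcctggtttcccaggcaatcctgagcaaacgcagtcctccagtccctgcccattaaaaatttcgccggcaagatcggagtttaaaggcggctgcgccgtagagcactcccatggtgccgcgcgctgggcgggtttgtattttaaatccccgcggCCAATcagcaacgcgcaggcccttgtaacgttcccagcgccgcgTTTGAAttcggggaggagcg
Mcm5, chr8:75109259-75109558, plus strand: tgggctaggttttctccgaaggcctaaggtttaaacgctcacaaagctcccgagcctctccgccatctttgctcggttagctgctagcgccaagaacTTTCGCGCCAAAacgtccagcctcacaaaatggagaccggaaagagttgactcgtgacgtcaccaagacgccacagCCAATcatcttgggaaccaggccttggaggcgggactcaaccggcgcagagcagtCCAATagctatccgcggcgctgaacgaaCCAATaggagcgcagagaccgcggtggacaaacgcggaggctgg
Mcm6, chr1:128359656-128359955, minus strand: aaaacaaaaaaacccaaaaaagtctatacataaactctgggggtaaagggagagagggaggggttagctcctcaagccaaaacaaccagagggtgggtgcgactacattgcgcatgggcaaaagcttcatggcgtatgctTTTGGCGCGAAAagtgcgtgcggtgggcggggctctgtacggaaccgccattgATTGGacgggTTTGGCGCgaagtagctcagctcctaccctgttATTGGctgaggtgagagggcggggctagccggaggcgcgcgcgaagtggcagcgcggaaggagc
Pcna, chr2:132253131-132253430, minus strand: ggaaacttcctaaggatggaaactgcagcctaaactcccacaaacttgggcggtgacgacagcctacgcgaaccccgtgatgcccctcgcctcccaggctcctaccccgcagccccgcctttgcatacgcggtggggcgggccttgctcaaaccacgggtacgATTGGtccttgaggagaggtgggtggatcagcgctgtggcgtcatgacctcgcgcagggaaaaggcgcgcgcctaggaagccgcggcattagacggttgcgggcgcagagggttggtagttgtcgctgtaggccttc

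The Cdk1 promoter held TTTGAA beginning 71 and 15 bases before the start, CCAAT boxes beginning 208, 80 and 48 bases before it and 1 E2F site 131 bases before it. Cdc20 had TTTGAA 18 bases before its start between a pair of CCAAT boxes, and Plk1 had it 31 bases into the transcribed part. Neither Mcm5, Mcm6 nor Pcna had a homology region in this window. Mcm5 and Mcm6 each had overlapping E2F sites, a forward site running into one on the other strand, and Pcna had none of the 4 E2F spellings searched. Of the 42 genes, 35 matched the table, with 37 promoters in all; Mcm4, Gins2, Ccne2, Ccna2, Aurkb, Kif20a and Tpx2 did not.

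Over all matched members of the replication and mitosis blocks the same division appeared. The homology region was in 13 of 17 mitosis promoters (76.5%) and 2 of 10 replication promoters (20.0%), beside 19.2% of the 32851 promoters in the table. E2F sites ran the other way, in 5 of 10 replication promoters (50.0%) and 1 of 17 mitosis promoters (5.88%), that of Cdk1, beside 2.26% of all promoters. CCAAT boxes were frequent in both, in 14 of 17 mitosis and 9 of 10 replication promoters, beside 37.4% of all. Of the 10 promoters of the other members, 2 had the homology region, 3 an E2F site and 4 a CCAAT box. Cenpa and Kif11 had a homology region and a CCAAT box at log2 fold changes of -0.0037 and 0.29. Birc5 had none of the motifs at 0.79. Whether the motifs go with the size of the difference was not tested. A match of letters is a description of the window and not a site of binding.

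Within the replication block, the helicase subunits Mcm2 to Mcm7, which form 1 ring around the DNA, differed among themselves in their values. Mcm5 stood at 14.7, 11.1 and 15.8 CPM in DKO and 7.85, 6.25 and 8.33 CPM in WT. Every DKO library was above every WT library, the mean was 13.9 ± 2.45 CPM in DKO against 7.48 ± 1.09 CPM in WT (SD, n = 3 each), and the log2 fold change was 0.89 ± 0.18 (adjusted p = 0.0641, edgeR), the smallest p of the 42. Mcm2 stood at 10.6, 11.1 and 8.29 CPM in DKO and 9.42, 8.87 and 7.28 CPM in WT, with overlapping groups and a log2 fold change of 0.23 ± 0.16 (adjusted p = 0.509, edgeR). Mcm7 stood at 24.9, 20.3 and 22.0 CPM in DKO and 23.5, 20.5 and 20.0 CPM in WT, where the highest WT library exceeded 2 of the DKO libraries, and its log2 fold change was 0.07 ± 0.11 (adjusted p = 0.793, edgeR). Mcm3, Mcm4 and Mcm6 had log2 fold changes of 0.15, 0.042 and 0.25, with overlap in each. Mcm5 thus had 1.85 times its WT level in DKO, while the other 5 subunits had between 1.03 and 1.19 times theirs; without Mcm5 the median of the replication block was 0.19.

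The factors that load the helicase were low. Cdc6, which recruits it to origins, stood at 2.16, 1.58 and 2.19 CPM in DKO and 1.57, 0.727 and 1.31 CPM in WT, without overlap, for a log2 fold change of 0.71 ± 0.33 (adjusted p = 0.318, edgeR). Cdt1, its partner in loading, stood at 5.77, 5.91 and 6.47 CPM in DKO and 3.99, 5.62 and 5.10 CPM in WT, also without overlap, for 0.30 ± 0.17 (adjusted p = 0.404, edgeR). Gins2, a subunit of the active helicase, stood at 2.86, 3.01 and 1.18 CPM in DKO and 1.70, 1.36 and 1.39 CPM in WT. Its DKO libraries 1 and 3 were above every WT library and DKO 4 was below every one, so the groups overlapped, and the log2 fold change of 0.66 ± 0.37 (adjusted p = 0.395, edgeR) had a wide error. In addition, 67.3% of the exonic bases of Gins2 lie on the opposite strand of Gse1 exons (Gse1 stood at 92.2 CPM). The library kit, TruSeq RNA v2, does not mark the strand, so reads of these 2 genes cannot be told apart there.

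Pcna, the sliding clamp of the polymerases, was the most abundant of the 40 members with FPKM values, at 37.4 ± 2.55 FPKM in WT (SD, n = 3), and the 2 groups had nearly the same level. It stood at 53.8, 47.1 and 54.3 CPM in DKO and 54.6, 48.2 and 49.8 CPM in WT. The log2 fold change was 0.023 ± 0.085 (adjusted p = 0.914, edgeR), and 2 SE either way ran from -0.15 to 0.19, a range that does not hold the 0.89 of Mcm5 or the 0.81 of the mitosis median.

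Ribonucleotide reductase makes deoxynucleotides from 2 kinds of subunit, and their genes differed in their values. Rrm1, the large subunit, which is known to be present through most of the cycle, stood at 46.7, 43.5 and 44.5 CPM in DKO and 49.8, 48.9 and 39.1 CPM in WT, with a log2 fold change of -0.032 ± 0.10 (adjusted p = 0.902, edgeR). Rrm2, the small subunit made in S phase, stood at 11.6, 12.0 and 12.1 CPM in DKO and 8.27, 9.06 and 7.98 CPM in WT. The Rrm2 groups did not overlap, the DKO libraries had a coefficient of variation of 2.22%, and the log2 fold change was 0.49 ± 0.11 (adjusted p = 0.0912, edgeR), the third smallest p of the members.

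The other nucleotide enzymes had smaller values. Tyms, thymidylate synthase, stood at 8.18, 7.95 and 8.02 CPM in DKO and 5.68, 7.61 and 7.89 CPM in WT, without overlap but with WT 3 just under the lowest DKO library, for a log2 fold change of 0.19 ± 0.16 (adjusted p = 0.576, edgeR). Tk1, the S phase thymidine kinase, stood at 5.97, 4.69 and 4.76 CPM in DKO and 4.37, 3.73 and 6.01 CPM in WT; WT 3 was the highest of the 6 libraries, and the log2 fold change was 0.13 ± 0.22 (adjusted p = 0.812, edgeR). Hells, a chromatin remodeller, was with Rrm1 and Cenpa 1 of the 3 members below 0, at -0.10 ± 0.18 (adjusted p = 0.809, edgeR). Uhrf1, which keeps DNA methylation on newly copied strands, stood at 7.93, 5.61 and 3.53 CPM in DKO and 3.65, 3.30 and 2.75 CPM in WT: DKO 1 was more than 2 times DKO 4, DKO 4 was below WT 1, and the log2 fold change was 0.82 ± 0.30 (adjusted p = 0.211, edgeR).

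The regulators of entry into S phase were low and above 0, with unadjusted p above 0.05 for each. E2f1, a transcription factor that switches on replication genes, stood at 3.61, 1.73 and 1.66 CPM in DKO and 1.32, 0.872 and 1.83 CPM in WT, where DKO 1 stood apart and the other DKO libraries were below WT 3. Its log2 fold change was 0.80 ± 0.41 (adjusted p = 0.356, edgeR). Ccne1, cyclin E1, stood at 1.40, 1.38 and 1.71 CPM in DKO and 0.891, 1.02 and 1.13 CPM in WT, without overlap, for 0.56 ± 0.26 (adjusted p = 0.319, edgeR). Ccne2, cyclin E2, stood at 4.56, 4.43 and 3.05 CPM in DKO and 3.56, 3.30 and 2.57 CPM in WT, with DKO 4 inside the WT range, for 0.35 ± 0.23 (adjusted p = 0.471, edgeR).

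The cyclins and the kinase that take the cell from S phase into mitosis had groups without overlap in 4 of 4 genes. Every DKO library was above every WT library in 11.4% of all genes tested. Cdk1, the mitotic cyclin-dependent kinase, had the largest log2 fold change of the 42 genes. It stood at 5.82, 3.62 and 3.48 CPM in DKO and 2.33, 2.08 and 1.66 CPM in WT, a mean of 4.30 ± 1.31 CPM in DKO against 2.02 ± 0.342 CPM in WT (SD, n = 3 each), for a log2 fold change of 1.09 ± 0.27 (adjusted p = 0.107, edgeR). Ccna2, cyclin A2, stood at 7.87, 5.66 and 4.60 CPM in DKO and 4.16, 3.49 and 2.75 CPM in WT, for a log2 fold change of 0.80 ± 0.25 (adjusted p = 0.169, edgeR). Ccnb1, cyclin B1, stood at 4.31, 2.497 and 2.84 CPM in DKO and 2.33, 1.94 and 1.66 CPM in WT, where DKO 3 was just above WT 1, for a log2 fold change of 0.70 ± 0.28 (adjusted p = 0.239, edgeR). Ccnb2 had 0.83 ± 0.27 (adjusted p = 0.179, edgeR). In all 4 genes DKO 1 was the highest library and WT 3 the lowest.

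Of the mitotic kinases and checkpoint genes, 5 of 6 had groups without overlap, beside 11.4% of all genes tested with DKO higher. Plk1, the Polo kinase of mitotic entry and spindle assembly, stood at 3.21, 3.16 and 2.30 CPM in DKO and 1.40, 1.70 and 1.09 CPM in WT. DKO 1 and 3 were alike here, the mean was 2.89 ± 0.511 CPM in DKO against 1.40 ± 0.303 CPM in WT, and the log2 fold change was 1.05 ± 0.26 (adjusted p = 0.110, edgeR). Aurkb, the kinase of the chromosomal passenger complex, stood at 3.76, 2.19 and 2.25 CPM in DKO and 1.36, 1.55 and 1.002 CPM in WT, for 1.07 ± 0.31 (adjusted p = 0.147, edgeR). Birc5, survivin, the subunit that brings Aurkb to the centromere, stood at 3.21, 2.90 and 1.93 CPM in DKO and 1.82, 1.45 and 1.35 CPM in WT, with DKO 4 just above WT 1, for 0.79 ± 0.27 (adjusted p = 0.195, edgeR). DKO 1 was the highest library for both of these 2 partners, and DKO 4 was the lowest DKO library for Birc5. For Aurkb, DKO 3 and DKO 4 were nearly level, at 43 and 42 counts.

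The checkpoint genes Bub1 and Bub1b, whose proteins sit at unattached kinetochores, had 1.92 and 1.94 times their mean WT level in DKO. Bub1b stood at 7.52, 4.03 and 4.92 CPM in DKO and 3.05, 2.86 and 2.57 CPM in WT, for 0.96 ± 0.26 (adjusted p = 0.125, edgeR). Bub1 stood at 1.71, 1.78 and 0.856 CPM in DKO and 0.933, 0.679 and 0.654 CPM in WT, for 0.93 ± 0.37 (adjusted p = 0.243, edgeR); DKO 4 was below WT 1, so its groups overlapped. Aurka, the kinase of the spindle poles, had a log2 fold change of 0.65 ± 0.24 (adjusted p = 0.211, edgeR) without overlap.

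Both genes of the anaphase promoting complex pathway had groups without overlap (11.4% of all genes tested with DKO higher) and were among the 8 smallest p. Ube2c, the enzyme that hands ubiquitin to the complex, stood at 3.71, 3.47 and 3.10 CPM in DKO and 1.70, 1.89 and 2.00 CPM in WT. The spread was small in both groups, 3.43 ± 0.306 CPM in DKO against 1.86 ± 0.156 CPM in WT (SD, n = 3 each), and the log2 fold change was 0.88 ± 0.20 (adjusted p = 0.0887, edgeR), the second smallest p of the members. Cdc20, the activator of the complex, stood at 4.71, 3.01 and 3.74 CPM in DKO and 2.29, 1.74 and 1.44 CPM in WT, for a log2 fold change of 1.06 ± 0.27 (adjusted p = 0.108, edgeR). Of the Ube2c exonic bases, 22.8% lie opposite exons of Tnnc2, which had 0 counts in these libraries.

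Of the centromere and kinetochore genes, 1 of 4 lacked overlap, beside 11.4% of all genes tested with DKO higher. Cenpf, a large outer kinetochore protein, stood at 5.72, 3.77 and 4.01 CPM in DKO and 3.56, 2.47 and 1.61 CPM in WT, for 0.82 ± 0.32 (adjusted p = 0.233, edgeR). Ndc80, which binds the microtubule, stood at 1.45, 0.662 and 1.02 CPM in DKO and 0.848, 0.485 and 0.349 CPM in WT, for 0.89 ± 0.46 (adjusted p = 0.361, edgeR); DKO 3 was below WT 1. It was the rarest member, at a mean of 16.5 counts per library. Cenpa, the histone H3 variant that marks the centromere, had 3.83 ± 0.890 CPM in DKO against 3.84 ± 0.499 CPM in WT and a log2 fold change of -0.0037 ± 0.22 (adjusted p = 0.995, edgeR), with 2 SE either way from -0.45 to 0.44. Cenpe, a kinetochore motor, had 0.40 ± 0.33 (adjusted p = 0.581, edgeR) with overlap.

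Motors and other spindle genes lay above 0 in 5 of 5, with 1 of 5 lacking overlap, beside 48.7% and 11.4% of all genes tested. Tpx2, the activator of Aurora A on the spindle, stood at 8.98, 6.88 and 4.60 CPM in DKO and 3.99, 4.26 and 3.57 CPM in WT, for 0.79 ± 0.25 (adjusted p = 0.169, edgeR). Kif11, the motor that pushes the spindle poles apart, stood at 6.47, 3.16 and 4.17 CPM in DKO and 3.86, 4.80 and 2.66 CPM in WT: WT 2 was above DKO 3 and DKO 4, and the log2 fold change was 0.29 ± 0.32 (adjusted p = 0.684, edgeR). Kif20a and Kif23, motors of cytokinesis, had 0.63 and 0.51, and Nusap1, a microtubule-binding protein, had 0.60, with overlap in all 3. Kif20a shares 29.3% of its exonic bases with Cdc23 on the other strand.

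The 2 proliferation markers had groups without overlap, beside 11.4% of all genes tested with DKO higher. Mki67, the antigen present in all cycling cells, stood at 16.8, 9.89 and 9.68 CPM in DKO and 8.87, 7.90 and 6.23 CPM in WT, a mean of 12.1 ± 4.05 CPM in DKO against 7.67 ± 1.33 CPM in WT, for a log2 fold change of 0.66 ± 0.25 (adjusted p = 0.220, edgeR). Top2a, the topoisomerase that untangles chromosomes before they part, stood at 19.4, 14.1 and 13.7 CPM in DKO and 10.01, 9.60 and 6.45 CPM in WT, a mean of 15.7 ± 3.20 CPM in DKO against 8.69 ± 1.95 CPM in WT, for 0.86 ± 0.21 (adjusted p = 0.104, edgeR). For both genes DKO 1 was clearly the highest library, and DKO 3 and DKO 4 were close to each other.

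Per length, the cell cycle genes ranged widely in the wild-type enamel organ. On the FPKM scale, after Pcna came Rrm1 at 10.9, Mcm7 at 9.94 and Mcm6 at 9.75 in WT. The median WT level was 4.32 FPKM over 10 replication genes and 0.795 FPKM over 20 mitosis genes, and in DKO it was 5.37 and 1.40. Cdk1 stood at 2.22 ± 0.375 FPKM in WT and 4.48 ± 1.80 FPKM in DKO, and Mki67 at 0.703 ± 0.120 and 1.11 ± 0.403 FPKM.

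By the medians of ranges of level, the rarer members had the higher fold changes, so levels were compared with all genes in the same range. Single genes departed from this: Mcm5 and Top2a, at means of 10.7 and 12.2 CPM, had 0.89 and 0.86, and Cenpa, at 3.83 CPM, had -0.0037. Members at 0 to 2 CPM (6 genes, 6 of them above 0) had a median log2 fold change of 0.75. Those at 2 to 5 CPM (21 genes, 20 of them above 0) had 0.79. Members at 5 to 10 CPM (7 genes) had 0.23, and members at 10 to 100 CPM (8 genes) had 0.16. All genes tested in the same ranges had medians of -0.0063, 0.041, 0.00064 and -0.014, in that order. The 3072 genes that lay within the CPM range of the mitosis block had a median of 0.029, with 9.02% at an unadjusted p below 0.05 in the direction of DKO and 12.2% without overlap in that direction. The plot of difference against level shows the members on this background.

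**Figure D2:**
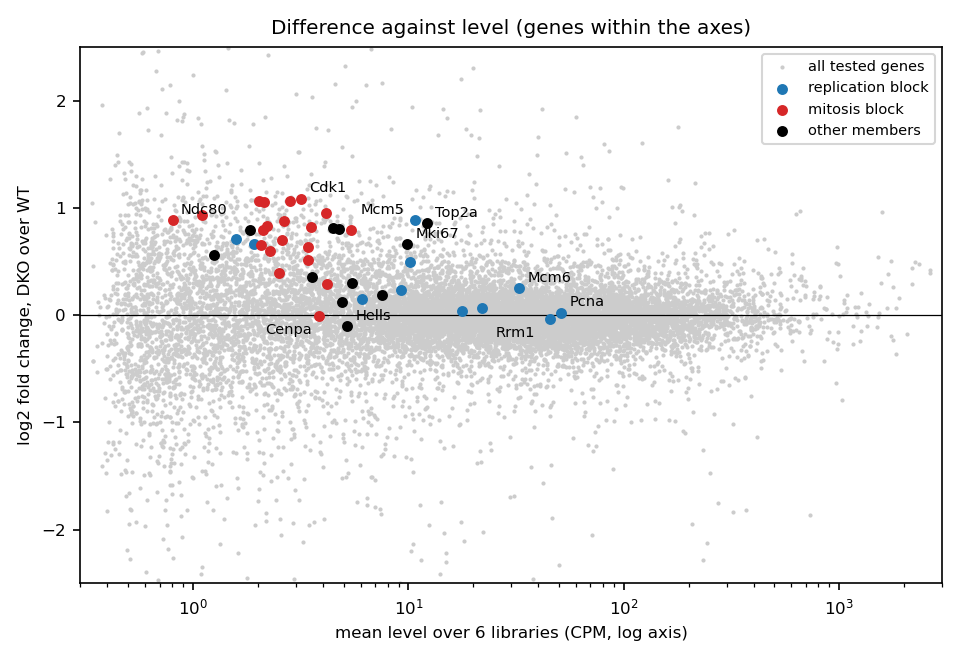
Log2 fold change (y axis) against the mean level over the 6 libraries (x axis, CPM, log axis) for all tested genes within the axes (grey) and for the 42 members by block. The mitosis members gather at 2 to 5 CPM near 0.8, above the grey cloud's centre, while Pcna and Rrm1 lie at the right near 0 and Mcm6 at 0.25.

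DKO 1 and WT 3 stood at the ends for most mitosis genes. DKO 1 was the highest of the 6 libraries in 19 of 20 mitosis genes, against 3 of 11 replication genes, and WT 3 was the lowest in 18 of 20 mitosis genes and 6 of 11 replication genes. As a median over the mitosis genes of log2 CPM minus the WT mean, DKO 1 stood at 1.13, DKO 3 and 4 at 0.58 and 0.57, and WT 1, 2 and 3 at 0.17, 0.065 and -0.28. For the replication genes the same measure was 0.33, 0.18 and 0.096 in DKO and 0.12, -0.075 and -0.079 in WT, so DKO 4 was below WT 1. The heat map of all members by library shows this order.

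**Figure D3:**
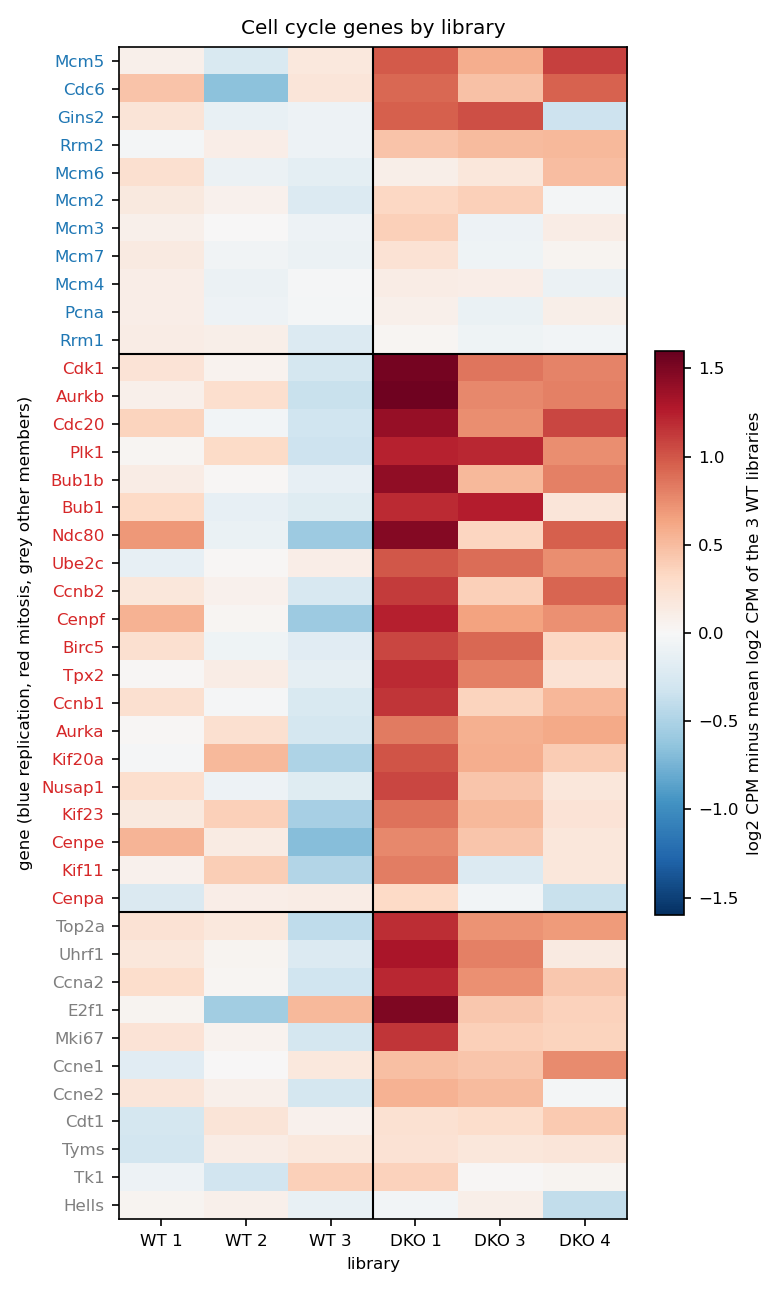
Log2 CPM minus the mean of the WT libraries (colour scale) for the 42 members (rows, grouped by block and ordered by fold change) in the 6 libraries (columns, WT left, DKO right). DKO 1 has the highest value in 19 of 20 mitosis rows, and of the replication rows Mcm2, Mcm3, Mcm4, Mcm7, Pcna and Rrm1 stay pale.

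As summed levels, the replication genes stood at 225, 207 and 224 CPM in DKO and 217, 194 and 184 CPM in WT, 1.10 times higher by the mean. The mitosis genes summed to 88.9, 62.2 and 58.5 CPM in DKO and 46.8, 46.7 and 34.9 CPM in WT (69.9 ± 16.6 against 42.8 ± 6.85, SD, n = 3 each), 1.63 times higher. Expressed as a percent of the replication sum, mitosis RNA made up 39.5, 30.0 and 26.1% in DKO and 21.6, 24.1 and 18.9% in WT, without overlap. The plot by library shows both measures.

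**Figure D4:**
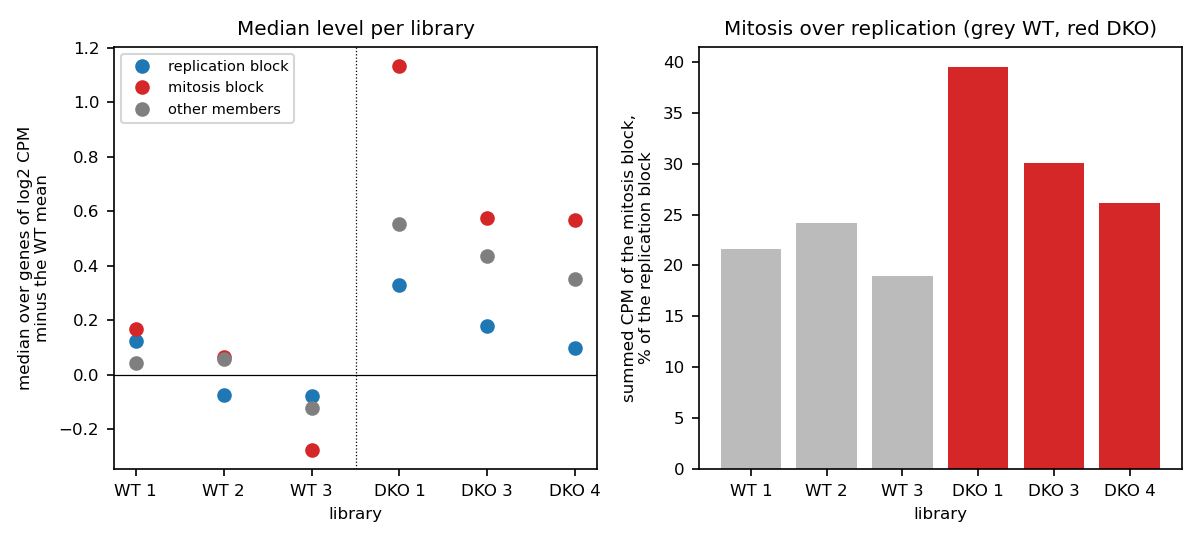
Median deviation of the members of each block (log2 CPM minus the WT mean, y axis) in the 6 libraries (x axis) at the left, and the summed CPM of the mitosis block as a percent of that of the replication block as bars at the right. The mitosis block is highest in DKO 1 at 1.13 and lowest in WT 3 at -0.28, and the replication block stays between -0.079 and 0.33.

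The spread between libraries was also larger for mitosis genes. Their coefficient of variation of CPM had a median of 25.02% in DKO and 19.3% in WT, against 14.9% and 12.6% for replication genes. Counting error alone gives a median of 12.4% and 15.3% for the mitosis genes and 6.10% and 7.24% for the replication genes, since the mitosis genes were rarer. The coefficient exceeded counting error in 36 of 42 genes in DKO and 31 of 42 in WT. Tyms and Rrm2 varied least in DKO, at 1.43% and 2.22%, and E2f1 and Gins2 were among the most variable, at 47.4% and 43.3%.

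Single libraries moved the number of mitosis genes at an unadjusted p below 0.05. It was 13 with all libraries, 6 without DKO 1, 7 without WT 3, and 10 to 14 without any of the other 4. The share of all genes tested that was higher in DKO at that level was 8.67%, 6.96%, 8.14% and 6.67 to 8.23% in these fits. The direction moved less: 18 of 20 mitosis genes lay above 0 without DKO 1, and 20 of 20 without WT 3.

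Other genes of the same processes were divided in a like way by their medians, but the lists also differed in level. The median level was 7.53 CPM for the replication factors tested and 2.21 CPM for the mitosis factors. Among rare replication factors, the log2 fold change was 0.84 for Clspn and 0.79 for Asf1b but -0.095 for Cdc45. Among abundant mitosis factors, it was 0.10 for Bub3 and -0.032 for Smc4 but 0.46 for Incenp. Level and process were not separated here. Of 40 tested other replication factors (polymerases, origin and fork proteins), edgeR called 0, 21 lay above 0, and the median log2 fold change was 0.0044. At an unadjusted p below 0.05, 5 were higher in DKO (12.5%, beside 8.67% of all genes tested). The smallest p belonged to Pole2, a subunit of the leading strand polymerase (1.96 CPM in WT and 3.21 CPM in DKO, 0.71 ± 0.20 (adjusted p = 0.143, edgeR)), Lig1, which joins Okazaki fragments (11.3 CPM in WT and 15.0 CPM in DKO, 0.40 ± 0.12 (adjusted p = 0.165, edgeR)), and Chaf1b, a histone chaperone of the fork (3.21 CPM in WT and 4.68 CPM in DKO, 0.54 ± 0.18 (adjusted p = 0.186, edgeR)). Of 43 tested other mitosis factors, edgeR also called 0, but 40 lay above 0 and the median was 0.51. At an unadjusted p below 0.05, 13 of these mitosis factors were higher in DKO (30.2%). Here the smallest p belonged to Cdca3, which acts in mitotic entry (1.82 CPM in WT and 3.49 CPM in DKO, 0.94 ± 0.22 (adjusted p = 0.0918, edgeR)), Racgap1, of the central spindle (3.81 CPM in WT and 6.38 CPM in DKO, 0.75 ± 0.18 (adjusted p = 0.0959, edgeR)), and Incenp, the scaffold of the passenger complex (11.6 CPM in WT and 15.9 CPM in DKO, 0.46 ± 0.12 (adjusted p = 0.118, edgeR)).

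Regulators of these genes lay on both sides of 0. Of 19 transcription regulators of the cell cycle, 7 lay above 0, the median was -0.058, and 0 were called. Myc, the growth-promoting factor, stood at 16.5, 9.63 and 11.8 CPM in DKO and 41.4, 18.6 and 31.4 CPM in WT, for a log2 fold change of -1.27 ± 0.31 (adjusted p = 0.101, edgeR). Lin54, a DNA-binding subunit of DREAM, and E2f3 had -0.29 ± 0.11 (adjusted p = 0.225, edgeR) and -0.45 ± 0.20 (adjusted p = 0.282, edgeR). Of 23 G1 cyclins, kinases and inhibitors, 18 lay above 0 with a median of 0.076, and 0 were called: Cdkn1a, the inhibitor p21, had 0.37 ± 0.12 (adjusted p = 0.170, edgeR), Cdkn2c 0.31 ± 0.13 (adjusted p = 0.253, edgeR) and Ccnd1, cyclin D1, 0.37 ± 0.19 (adjusted p = 0.341, edgeR).

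**Figure D5:**
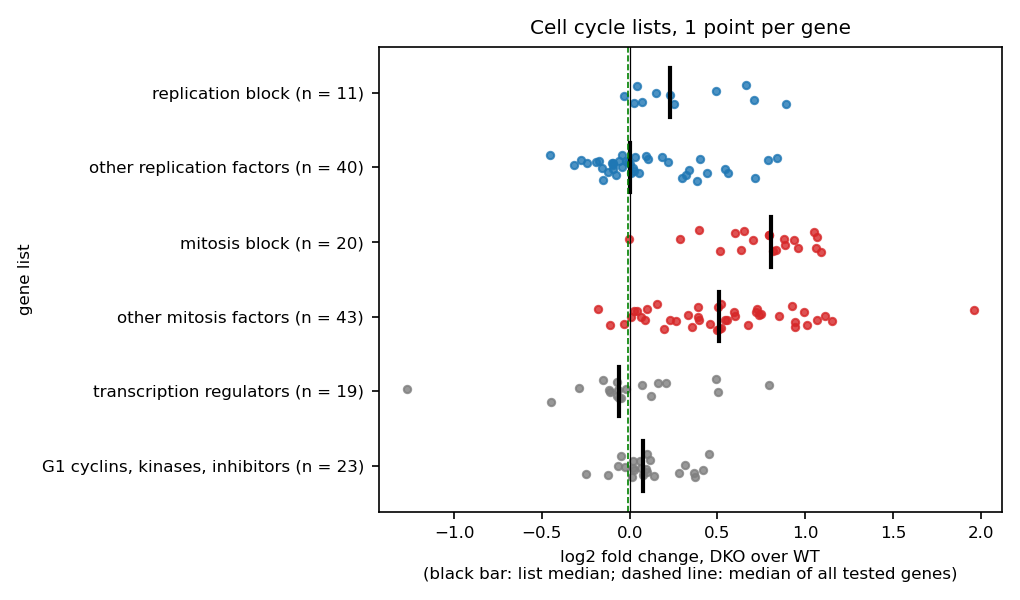
Log2 fold change (x axis, DKO over WT) of each tested gene in 6 cell cycle lists (y axis), with the list median as a black bar and the median of all tested genes as a dashed line. The 2 mitosis lists have medians of 0.81 and 0.51, and the 2 replication lists 0.23 and 0.0044.

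Markers of other cell types also differed between the libraries. Summed leukocyte markers (16 of 16 above 0) ran from 473 to 688 CPM in DKO and 336 to 502 CPM in WT, endothelial markers (11 of 12 above 0) from 510 to 543 CPM and 351 to 471 CPM, and mesenchyme markers (15 of 15 above 0) from 11564 to 14520 CPM and 7499 to 12391 CPM. Plvap, of fenestrated capillaries, was called (33.02 CPM in WT and 50.5 CPM in DKO, 0.61 ± 0.11 (adjusted p = 0.0475, edgeR)). The library with the highest mesenchyme sum was DKO 1, which was also highest in mitosis genes, and WT 3, the lowest in mitosis genes, had the highest mesenchyme sum of the WT libraries. Basal and oral keratinocyte markers were lower (0 of 11 above 0), at 6889 to 7099 CPM in DKO and 9318 to 10565 CPM in WT, with Krt6a called (328 CPM in WT and 84.9 CPM in DKO, -1.95 ± 0.27 (adjusted p = 0.0216, edgeR)).

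Sums of 6 further epithelial and blood lists overlapped between the groups. Cervical loop markers, which mark the epithelium where cells divide, ran from 1549 to 1909 CPM in DKO and 1358 to 2063 CPM in WT (5 of 11 above 0). Lymphocyte sums were 2.96 to 4.97 and 3.10 to 5.36 CPM, neutrophil sums 11.9 to 24.6 and 3.01 to 83.4 CPM, and erythroid sums 134 to 392 and 141 to 435 CPM; no marker of any list was at 0 in all libraries. Secretory ameloblast markers ran from 116419 to 181068 CPM in DKO and 69868 to 139204 CPM in WT (4 of 4 above 0), and maturation ameloblast markers from 23797 to 28804 and 21796 to 29023 CPM, with Car6 called (370 CPM in WT and 568 CPM in DKO, 0.62 ± 0.10 (adjusted p = 0.0351, edgeR)). Odontoblast and osteoblast sums did not overlap, at 2963 to 3309 CPM in DKO and 1832 to 2930 CPM in WT. Most of each sum was Alpl, at 2328, 2868 and 2709 CPM in DKO and 1701, 2457 and 1457 CPM in WT, with overlap. Of the 10 markers in this list, 7 lay above 0 and 3 below. Bglap2 was called lower (19.1 CPM in WT and 2.83 CPM in DKO, -2.75 ± 0.25 (adjusted p = 0.00744, edgeR)). The part of these cell types in the cell cycle values was not tested.

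DKO 1, WT 1 and WT 2 had Xist above 100 CPM and the other 3 libraries did not, so each group held both sexes in different numbers. DKO 1 was the only DKO library above that level and WT 3 the only WT library below it. A fit with a term for Xist therefore leans most on DKO 1 and WT 3, which also stood at the ends for most mitosis genes. With a term for Xist, Top2a passed the edgeR test (adjusted p = 0.0269) beside 0.482% of all genes called in either direction. At an unadjusted p below 0.05, 19 of 20 mitosis genes and 2 of 11 replication genes were higher in DKO in that fit, beside 7.38% of all genes.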

How the data were processed

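RNA from enamel organ cells was measured in 6 libraries, 3 DKO and 3 WT. Counts were deposited unnormalised as whole numbers for each Ensembl gene, and 0 rows lacked a gene. The FPKM values have the Cufflinks gene format, per the file headers, and 9 genes with a failed estimate were left out of FPKM tests. GRCm38, Trimmomatic 0.32, Cufflinks 2.2 and HTSeq are named in the submitters' processing notes without a role; the aligner, annotation release and strand setting were not given in the sources used here. Total counts were 18609759 to 22829411 per library; reads without molecular identifiers are not independent molecules.

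DKO was compared with WT by edgeR 4.0.16 (quasi-likelihood, TMM, filterByExpr, no covariate) in R 4.3.3, with Benjamini-Hochberg adjustment over 14721 genes and a threshold of 0.05. A standard error is the log2 fold change over the square root of F. The fit was also run on simulated counts with the same spread setting for every gene. Only genes with a mean of at least 50 counts were changed there, so that run says nothing of rarer members. Every pair of libraries differed beyond sampling noise (chi-square per degree of freedom at least 14.1). Exon overlaps came from GENCODE vM21.

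Alternatives were DESeq2 1.42.0 size factors and Wald test, total counts, upper quartile, TMM without the 50 most abundant genes, no filter, a mean of at least 50 counts, a replicate block, an Xist term, each library left out, and limma 3.58.1 on log2(FPKM + 1) or log2(FPKM + 0.1), filtered at 1 FPKM or unfiltered. The members and lists were chosen with earlier results of these data known. The text names a list of core members and those among the 8 smallest p with values per library, and gives the rest by range or fold change; of other lists it names the 3 smallest p, and of markers those called.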

Additional observations from a re-analysis of the deposited data

How the results depend on the processing

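Of the 42 members' values under 18 alternatives, 672 kept their direction and side of the threshold, 12 passed it and 28 reversed, in 8 genes. Members called were 2 without a low-count filter (Mcm5 and Top2a), 1 with the replicate block (Top2a), 1 with the Xist term (Top2a) and 8 by the DESeq2 Wald test, and 0 under the others. All genes called went from 153 to 554 without a filter, 328 with the block, 71 with the Xist term, 866 by DESeq2, and 77, 77 and 11 by limma with 1, with 0.1 and unfiltered, and ran from 21 to 335 with 1 library left out. The mitosis median was 0.51 by limma with 1 and 0.43 unfiltered. The replication median, 0.23, was 0.13 without WT 3, 0.15 with a mean of at least 50 counts and with the block, and 0.12, 0.16 and 0.16 by limma with 1, with 0.1 and unfiltered. Some of these medians cover fewer genes: the filter at 50 counts held 30 of the 42 members, without Cdc6 and Gins2. The filtered limma fits held 27 members and the unfiltered fit 40. With the replicate block, WT 2 and DKO 4 do not inform the group difference, since neither number occurs in the other group. That fit compares only the libraries numbered 1 and 3, and so keeps DKO 1 and WT 3, the ends for most mitosis genes. The mitosis median less the replication median, 0.58, was 0.79 with the replicate block and 0.28 by limma unfiltered. The cause of these shifts was not tested.

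Replicate numbers 1 and 3 occur in both groups, and the deviations of same-numbered libraries correlated at 0.189 and 0. The labels do not say what a number marks; Xist was above 100 CPM in both libraries numbered 1 and below it in both numbered 3. With the replicate block, log2 fold changes reversed for Cenpa (0.20), Hells (0.066), Rrm1 (0.031) and Pcna (-0.052). With the Xist term, Cenpa was 0.036 and Rrm1 0.046. With total counts, Mcm4 was -0.0094 and Pcna -0.023. Cenpa was also 0.00084 with DESeq2 size factors, 0.019 with the upper quartile, 0.0027 without a filter, 0.0018 by DESeq2, and 0.13, 0.16 and 0.13 by limma. With 1 library left out, values ran from -0.19 to 0.15 for Cenpa, -0.033 to 0.50 for Kif11, -0.013 to 0.35 for Tk1, -0.21 to 0.026 for Hells, -0.0017 to 0.11 for Mcm4, -0.0061 to 0.15 for Mcm7, -0.13 to 0.034 for Rrm1 and -0.013 to 0.087 for Pcna. Counting error alone gave the mitosis genes a median coefficient of variation of 12.4% in DKO and 15.3% in WT.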
